A study of Cricetulus griseus with 3 samples.

Results

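The genes described here encode subunits and assembly factors of the mitochondrial respiratory chain and of ATP synthase. They were taken by name, as all spots whose annotation holds a single gene symbol beginning with Nduf, Cox and a digit, Uqcr, Atp5, Sdh with a to d, or Cycs, together with Cyc1. The rule found 113 of the 17664 spots of the array and 69 of the 8146 genes with a value. Of these genes 40 were measured by 1 spot and 29 by 2 or more, with at most 5 spots for a gene. Symbols are spelt as the annotation gives them, and the older ATP synthase names stand beside newer ones.

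The study set S-1 cells, a Chinese hamster ovary (CHO) line that stably overexpresses the 4 γ-secretase subunits, as NCT-GST, PS1, APH1-a2-HA and Flag-PEN2, against the untransfected parental CHO cells. It also marks APP, a known γ-secretase substrate, as overexpressed in S-1 cells. S-1 cells grew under G418, puromycin, zeocin, hygromycin and blasticidin and were exposed for 24 h to 0.05% DMSO. The parental cells had no selection drug and received for 24 h 10 µM DAPT, a γ-secretase inhibitor, in the same amount of DMSO. Each of 3 two-colour arrays of mouse cDNA clones paired the RNA of an S-1 culture with that of a CHO culture under DAPT. The S-1 line, its constructs, the drugs and the inhibitor differed together, so that their parts in a ratio cannot be told apart. S-1 was derived through another transfected line and stands for 1 line. A ratio is relative to the whole RNA on its array, and fewer cells and less RNA per cell cannot be told apart.

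The respiratory chain passes electrons through protein complexes of the inner mitochondrial membrane and pumps protons outward. Complex I accepts electrons from NADH and complex II from succinate, ubiquinone carries them to complex III, and cytochrome c takes them on to complex IV, which reduces oxygen. ATP synthase lets the protons return and makes ATP. Complex II and cytochrome c are encoded wholly in the nucleus, whereas the other complexes combine nuclear subunits with some made inside the mitochondrion. No gene value stood under the symbols listed for the mitochondrial-encoded subunits, so the values below are all of nuclear genes.

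Values are log2 ratios with S-1 on top and the DAPT-treated CHO cells below, and a positive value means a higher level in S-1 cells. The direction is not written with the values. It was taken from the clone lists of the study, since of 330 gene names listed as increased in S-1 cells and found once on the array 329 had a positive value, against 7 of 347 names listed as decreased. Among genes of the transfected subunits, Psenen was at 2.84, 3.11 and 3.33 on arrays 1, 2 and 3 and Aph1a at 1.85, 2.17 and 2.04, while Ncstn, at 0.33, 0.15 and 0.64, did not pass the test (adjusted p = 0.0313, limma). A spot or gene passed when limma's adjusted p was at most 0.005, the threshold of the study. Pearson's r between pairs of arrays lay between 0.878 and 0.962, across 16928 spots that are no independent replicates. Array 3 was the dye swap, with S-1 RNA in Cy5 in place of Cy3. The ratios hold no level, so that the cell type could not be checked against markers and levels of different genes could not be compared.

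Of the 69 genes, 22 were higher in S-1 cells, set against DAPT-treated CHO, 1 was lower and 46 did not pass. The share that was higher was 31.9%, beside 12.4% of all 8146 gene values, and the share that was lower was 1.45%, beside 10.3%. By spot, 32 of 113 passed higher and 1 lower, beside 9.68% and 8.52% of all tested spots. The median of the gene values was 0.13, beside 0.01 over all genes, with medians of 0.23, 0.13 and 0.12 on arrays 1, 2 and 3. Without array 1, 7 of the 69 genes passed (10.1%, beside 8.26% of all genes, either direction), without array 2, 7 did (10.1%, beside 5.97%), and without array 3, 34 did (49.3%, beside 40.5%). With the control spots of the array in the fit 14 of the 113 spots passed (12.4%, beside 7.01% of all tested spots). The gene values reached from −0.53 for Uqcrb to 1.03 for Cyc1, 41 of the 69 stood above 0 on all 3 arrays (37.5% of all genes did) and 12 below 0 (33.7% of all genes did). The SD of a gene over the 3 arrays had a median of 0.08.

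Values differed with the position of a spot. The array was printed in 32 blocks, and 13 of the member spots lay among the last 24 positions of a block. All 13 passed, higher in S-1 cells, from 0.53 to 1.58, but so did 56.5% of all 768 spots at those positions (4.69% passed lower), whose median was 0.78. Most other member spots, 98 in number, were H clones, named after the letter that opens their clone identifiers, and 2 were P clones. At the last positions, the gene names matched to the study's clone lists were 24 of P, 10 of N and 2 of H clones. Position and kind of clone thus cannot be told apart. Of the 98 H clones 17 passed higher and 1 lower, beside 6.76% and 8.52% of all H clones. When H clones were fitted alone, 15 of 68 genes were higher and 1 lower, which is 22.1% and 1.47%, beside 8.00% and 10.7% of the 7489 genes with an H clone. The median of the 68 genes was then 0.08, beside −0.01 over all genes. The part of the position or the kind of clone in the gene values was not tested. Values with H clones alone are therefore given beside those of each complex.

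**Figure D1:**
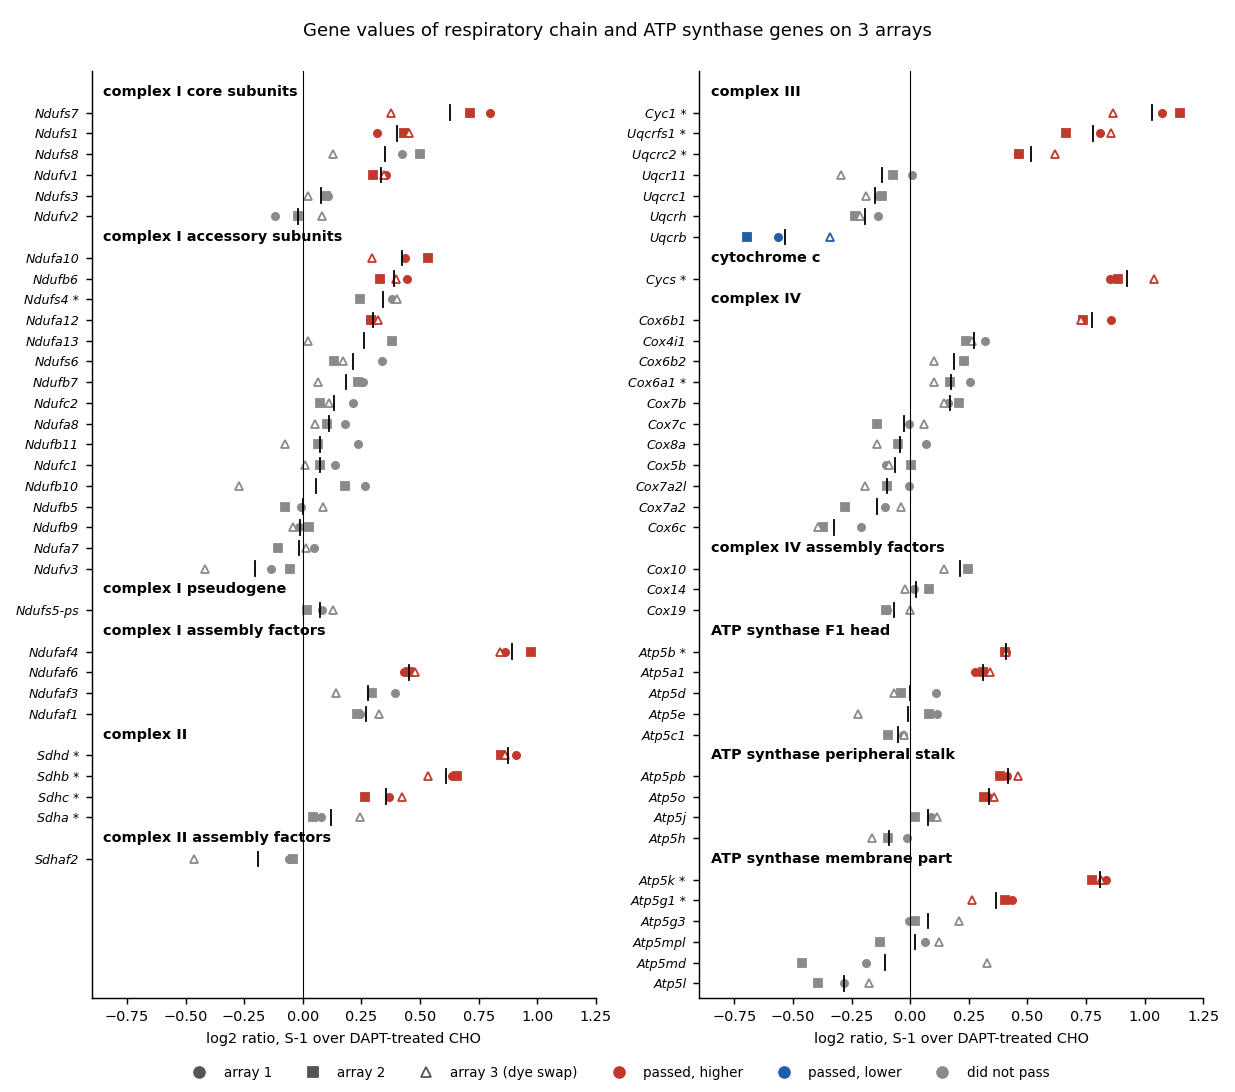
Gene values by complex. The horizontal axis gives the log2 ratio (S-1 to DAPT-treated CHO), a circle, a square and an open triangle mark arrays 1, 2 and 3, a vertical bar marks their mean, colour shows the result of limma at an adjusted p of 0.005, and an asterisk marks the 13 genes with a spot at the last 24 positions of a block. Of the 69 genes 22 passed higher and 1, Uqcrb, passed lower.

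**Figure D2:**
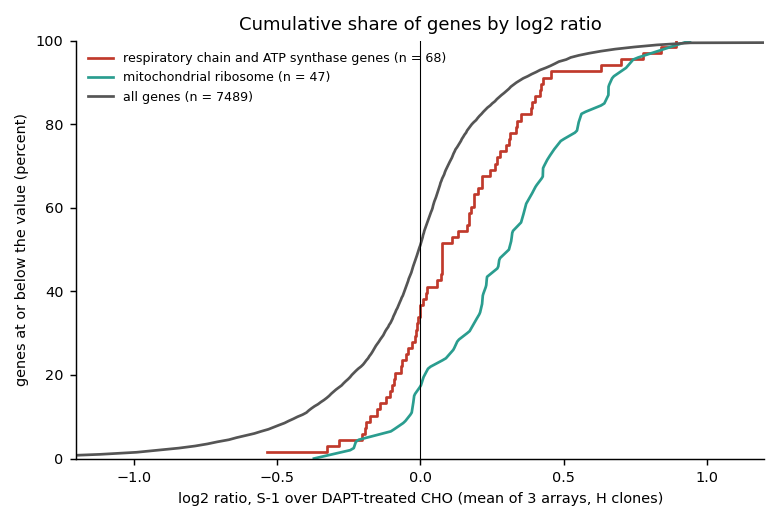
Running share of genes, in percent on the vertical axis, up to a given log2 ratio on the horizontal axis (mean of 3 arrays), from H clones alone. The medians were 0.08 for the 68 respiratory chain and ATP synthase genes, 0.31 for the 47 genes with symbols of the mitochondrial ribosome (Mrpl or Mrps and a digit) and −0.01 for all 7489 genes.

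The plots of the gene values by complex and of their cumulative share show genes on both sides of 0 in most complexes. The complexes are described along the path of the electrons.

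Complex I was measured by 22 structural subunits and a spot annotated to the pseudogene Ndufs5-ps. Of the 22, 6 were higher in S-1 cells and 16 did not pass, with a median of 0.16. Each of these was called on gene values, and the single spots of Ndufs7, Ndufa10 and Ndufa12 stood just outside the threshold in the fit of spots (adjusted p = 0.00530, 0.00534 and 0.00535, limma). The core subunits, which carry the flavin and the iron-sulphur clusters or bind ubiquinone, held 3 of the 6. Ndufs1, the largest of the iron-sulphur subunits, was at 0.32, 0.43 and 0.45 on arrays 1, 2 and 3 (mean 0.40 ± 0.07, SD, n = 3, adjusted p = 0.00276, limma). Ndufv1, the subunit that binds FMN and NADH, was at 0.35, 0.30 and 0.35 (mean 0.33 ± 0.03, adjusted p = 0.00306). Both stood close together on the 3 arrays.

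Ndufs7, an iron-sulphur subunit next to the ubiquinone site, had 0.80, 0.71 and 0.38 (mean 0.63 ± 0.22, adjusted p = 0.00471, limma). Its value on the dye-swap array was the lowest, and with H clones alone it stood just outside the threshold (adjusted p = 0.00504). Ndufs8, another iron-sulphur subunit, was at 0.42, 0.50 and 0.13, also lowest on array 3, and did not pass (adjusted p = 0.0221). Ndufs3 and Ndufv2 were at 0.08 and −0.02 and did not pass either. The core subunits thus ranged from values near 0 to a ratio of 1.55 for Ndufs7.

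Among the 16 accessory subunits, which surround the core, 3 were higher and 13 did not pass. Ndufa10 was at 0.44, 0.53 and 0.29 (adjusted p = 0.00451, limma), Ndufb6 at 0.44, 0.33 and 0.40 (adjusted p = 0.00239) and Ndufa12 at 0.29, 0.29 and 0.32 (adjusted p = 0.00404). An H clone measured each of them. Ndufs4, a subunit at the electron input part whose loss causes complex I deficiency, had 3 spots and missed the threshold (mean 0.34, adjusted p = 0.00525). Its H clones were at 0.08 and 0.25 and its spot at the last positions at 0.69, which passed. The lowest accessory subunit was Ndufv3, at −0.14, −0.06 and −0.42 (adjusted p = 0.0988). For Ndufb10 the dye-swap array went the other way, with 0.27 and 0.18 on arrays 1 and 2 and −0.27 on array 3.

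Assembly factors of complex I, which help to build the complex and are not part of it, were on the positive side on every array. Ndufaf4 was at 0.86, 0.97 and 0.84 on arrays 1, 2 and 3, a ratio of 1.86 (mean 0.89 ± 0.07, SD, n = 3, adjusted p = 2.60e-04, limma), the highest value of any member gene with H clones alone. Ndufaf6 was at 0.43, 0.45 and 0.48 (adjusted p = 0.00115). Ndufaf3 (mean 0.28, adjusted p = 0.0185) and Ndufaf1 (mean 0.27, adjusted p = 0.00738) did not pass. With H clones alone 5 of the 22 structural subunits and 2 of the 4 assembly factors were higher, Ndufs7 being the subunit that was lost.

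Complex II, or succinate dehydrogenase, had its 4 subunits measured, each by H clones and by 1 spot at the last positions. In gene values 3 of the 4 were higher in S-1 cells, and with H clones alone 1 was. Sdhb, the iron-sulphur subunit, passed on both kinds of spot. Its H clone was at 0.48, 0.46 and 0.34 (mean 0.43 ± 0.07, SD, n = 3, adjusted p = 0.00275, limma) and its other spot at 0.80, 0.85 and 0.72 (adjusted p = 4.01e-04).

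The membrane anchor subunits Sdhc and Sdhd passed on their spots at the last positions and not on their H clones. Sdhd had 1.60, 1.48 and 1.67 there, a ratio of 2.995 and the highest of all member spots, against 0.22, 0.21 and 0.06 on its H clone, which did not pass (adjusted p = 0.0671, limma). Sdhc had 0.70, 0.58 and 0.81 there, against 0.04, −0.05 and 0.04 on its H clone (adjusted p = 0.911). For Sdha, the flavoprotein subunit, the spot at the last positions was at 0.54 and passed, while its H clones were at −0.14 and −0.04, and the gene value of 0.12 did not pass (adjusted p = 0.146). Sdhaf2, which helps to attach the flavin to Sdha, had H clones at −0.22 and −0.16, neither of which passed, with the lowest value of each on the dye-swap array.

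In complex III genes passed in both directions, the lower one by Uqcrb alone. Of its 7 genes, 3 were higher in S-1 cells (42.9%, beside 12.4% of all genes), 1 was lower (14.3%, beside 10.3%) and 3 did not pass. Cyc1, cytochrome c1, which hands electrons to cytochrome c, was the highest gene of the whole set, at 1.07, 1.15 and 0.87 on arrays 1, 2 and 3 (mean 1.03 ± 0.15, SD, n = 3, adjusted p = 4.55e-04, limma). Its 3 spots agreed in direction. The H clone was at 0.88, 1.09 and 0.55 (adjusted p = 0.00360), the P clone at 0.80, 0.84 and 0.77 (adjusted p = 2.89e-04) and the spot at the last positions at 1.54, 1.53 and 1.28, so that Cyc1 was higher on each kind of spot.

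The Rieske iron-sulphur subunit Uqcrfs1 was at 0.81, 0.67 and 0.86 (adjusted p = 5.62e-04, limma), but its only spot lay at the last positions. Uqcrc2, a core protein of the complex, had a gene value of 0.51 (adjusted p = 0.00157), and its H clones at 0.33 and 0.44 did not pass alone (adjusted p = 0.00619 for both together). Uqcrc1, the other core protein, was at −0.15 and −0.14 on its clones and did not pass, so that the core pair stood on opposite sides of 0.

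Uqcrb, a small subunit near the ubiquinone site, was lower in S-1 cells, at −0.565, −0.70 and −0.34 on arrays 1, 2 and 3 (mean −0.53 ± 0.18, SD, n = 3, adjusted p = 0.00458, limma). Its clones were at −0.55 and −0.52, 1 of which passed (adjusted p = 0.00431) and 1 did not (adjusted p = 0.00630). On both clones the dye-swap array gave the smallest change. The small subunits Uqcrh and Uqcr11 were at −0.19 (adjusted p = 0.0211) and −0.12 (adjusted p = 0.222) and did not pass. With H clones alone Cyc1 was the 1 gene of 6 that was higher and Uqcrb the 1 that was lower.

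Cycs, the somatic cytochrome c, which also activates caspases when it leaves the mitochondrion, was higher in S-1 cells at 0.85, 0.89 and 1.04 (mean 0.93 ± 0.10, SD, n = 3, adjusted p = 3.19e-04, limma). Its H clones were at 0.59 and 0.81, ratios of 1.501 and 1.755, and both passed. The spot at the last positions was at 1.38. Cyc1 and Cycs, which exchange electrons with each other, were thus the highest gene values of the set. With H clones alone they were at 0.84 and 0.70, where Ndufaf4 (0.89) stood above both and Cox6b1 (0.775) above Cycs.

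Of 11 genes of complex IV, cytochrome c oxidase, 1 was higher and 10 did not pass, with a median of −0.03, and the counts were the same with H clones alone. Cox6b1, a subunit on the intermembrane side, was at 0.86, 0.74 and 0.73 on arrays 1, 2 and 3 (mean 0.775 ± 0.07, SD, n = 3, adjusted p = 3.83e-04, limma) on 1 H clone. Cox6b2, its isoform of the testis, was at 0.19 and did not pass (adjusted p = 0.0316).

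Cox4i1, the gene with the most spots, was above 0 on each of its 5 clones and each array. Its H clones were at 0.17, 0.20, 0.30 and 0.31, of which the last passed (adjusted p = 0.00462, limma), and its P clone at 0.39 passed too (adjusted p = 0.00285). Its gene value of 0.27 missed the threshold (adjusted p = 0.00624). Cox6a1 was split, with 0.62, 0.56 and 0.40 at the last positions, which passed, against −0.11, −0.22 and −0.20 on its H clone, which did not (adjusted p = 0.0411).

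Cox6c was the lowest gene of complex IV, at −0.21, −0.37 and −0.39 (adjusted p = 0.00759, limma), and did not pass. The gene values of Cox5b, Cox7a2, Cox7a2l, Cox7c and Cox8a lay between −0.14 and −0.03, and none of these passed. Cox7a2l takes part in joining complexes III and IV into supercomplexes. Of the assembly factors, Cox10, which makes the haem precursor of the oxidase, had 1 H clone that passed, at 0.34 (adjusted p = 0.00468), and 1 at 0.08, and its gene value of 0.21 did not pass. Cox14 and Cox19 were at 0.025 and −0.07. The isoform genes Cox4i2, Cox6a2, Cox7a1, Cox8b and Ndufa4l2 had no value under a single name.

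Of 15 genes of ATP synthase, 6 were higher in S-1 cells and 9 did not pass, with a median of 0.07. The catalytic F1 head contained both sides of that split. Atp5b, the catalytic β subunit, was at 0.41, 0.40 and 0.41 on arrays 1, 2 and 3 (adjusted p = 0.00149, limma), and at 0.31 with H clones alone, which still passed (adjusted p = 0.00356). Atp5a1, the α subunit that alternates with β in the head, was at 0.28, 0.31 and 0.34 (mean 0.31 ± 0.03, SD, n = 3, adjusted p = 0.00393), from 4 H clones between 0.19 and 0.46. On the clones of Atp5a1 the ratios were 1.14 to 1.37. In the fit of spots the highest H clone of Atp5a1 passed (adjusted p = 0.00152, limma), as did that of Atp5b (adjusted p = 0.00217). The other H clones of both genes did not pass.

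The central stalk, which turns inside the head, gave mean values near 0. Atp5c1, the γ subunit, had 3 H clones at −0.09, −0.06 and 0.00 (gene value −0.05, adjusted p = 0.391, limma), with an array SD of 0.04. Atp5d and Atp5e, the δ and ε subunits, had means of 0.00 (adjusted p = 0.994, limma) and −0.01 (adjusted p = 0.940), each on 1 spot. Atp5d was at 0.11, −0.04 and −0.07 and Atp5e at 0.12, 0.08 and −0.22 on arrays 1, 2 and 3. A difference between the α and β subunits and the stalk was not tested.

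In the peripheral stalk, which holds the head still, Atp5pb and Atp5o were higher and Atp5h and Atp5j did not pass. Atp5pb, the b subunit, was at 0.41, 0.38 and 0.46 (adjusted p = 0.00162, limma), with both of its H clones past the threshold at 0.39 and 0.45. Atp5o, the subunit that confers oligomycin sensitivity, was at 0.33, 0.32 and 0.36 (adjusted p = 0.00287), on H clones at 0.29 and 0.38, the second of which passed. Atp5h and Atp5j were at −0.09 and 0.08.

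In the membrane part 2 of 6 genes were higher, and none with H clones alone. With H clones alone limma gave 3 of the 6 an unadjusted p under 0.05, as it did 3893 of all 7489 genes. Atp5k, the e subunit, had a gene value of 0.81, from a spot at the last positions of a block at 1.419, 1.401 and 1.503 on arrays 1, 2 and 3, a mean ratio of 2.72, against 0.25, 0.15 and 0.13 on its H clone, which did not pass (adjusted p = 0.0416, limma). Atp5g1, a gene of the c ring, had a gene value of 0.37, with 0.70 on its spot at the last positions and 0.14 and 0.26 on H clones that did not pass. Atp5g3 encodes the same mature c subunit as Atp5g1, and was at 0.07 (adjusted p = 0.350). Atp5l, the g subunit, was on the negative side at −0.31 and −0.26 on its clones, which did not pass (gene value adjusted p = 0.0137). With H clones alone 4 of the 15 genes, Atp5a1, Atp5b, Atp5o and Atp5pb, were higher. Genes of this set with near-identical relatives or processed pseudogenes can share signal on a cDNA spot, and hamster RNA was read on mouse clones.

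**Figure D3:**
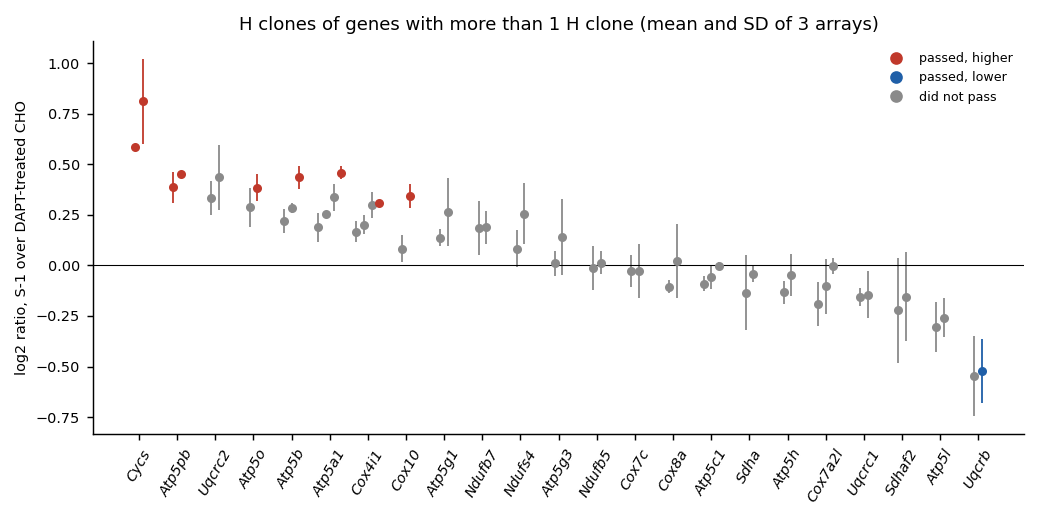
H clones of the 23 genes with more than 1 H clone. The vertical axis gives the log2 ratio (S-1 to DAPT-treated CHO), each point is the mean of 3 arrays for 1 clone with its SD, and colour shows whether the clone passed limma's test. The clones of a gene lie within 0.27 of each other.

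Separate clones of a gene were then compared. In the 23 member genes with 2 or more H clones, the highest and lowest clone differed by a median of 0.10 and by at most 0.27, for Atp5a1, and in 21 of the 23 all clones of the gene had the same sign. Over all 2490 genes of the array with 2 or more H clones the median difference was 0.19 and 1473 had clones of 1 sign. The spread of the clones is a description, since clones of a gene share their target. In Atp5a1, Atp5b, Atp5o, Cox4i1, Cox10 and Uqcrb some H clones passed and others did not, and the clones of each of these genes had the same sign. The widest ranges of the 23 were those of Atp5a1 (0.27) and Cox10 (0.26), whose failing clone was at 0.08.

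**Figure D4:**
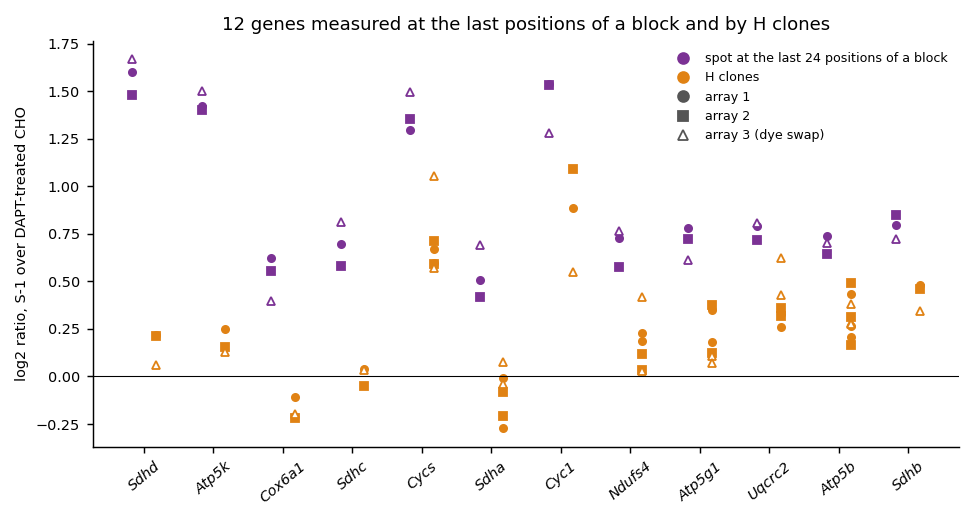
The 12 genes measured both at the last 24 positions of a block (left of each pair) and by H clones (right). The vertical axis gives the log2 ratio (S-1 to DAPT-treated CHO), and symbols mark the 3 arrays. On each array the spot at the last positions was above the mean of the H clones in 12 of 12 genes.

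Spots at the last positions stood apart from the H clones of the same genes. In the 12 member genes with both, the spot at the last positions exceeded the mean of the H clones by 0.36 (Sdhb) to 1.42 (Sdhd), with a median of 0.62, on all 3 arrays in 12 of 12 genes. Of all 291 genes of the array with both, 76.6% were higher at the last positions on all 3 arrays, with a median difference of 0.81. Without these positions 16 of 68 genes were higher (23.5%, beside 9.38% of all genes) and 1 was lower (1.47%, beside 11.1%). The calls of Sdhc, Sdhd, Uqcrc2, Atp5g1 and Atp5k ended, while Uqcrfs1 had no other spot.

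Member spots were also set side by side over the dye swap. Over the 98 H clones Pearson's r between array 3 and the mean of arrays 1 and 2 was 0.78 (0.82 over all 15360 H clones), across spots that share genes and arrays. On 4 of the 98 the value was positive on arrays 1 and 2 and negative on array 3, and on 5 it was the reverse. Over all 15360 H clones these numbers were 1549 and 1146. None of these member spots passed the test, which opposite signs over the arrays make unlikely from the start.

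Other mitochondrial genes were described from lists. Of all gene values 12.4% were higher and 10.3% lower, and with H clones alone 8.00% and 10.7%. These shares stand beside the counts of every list below, and a difference from them was not tested. The list of the mitochondrial ribosome was taken by symbol alone, as Mrpl or Mrps and a digit. Of its 47 genes 16 were higher, 1 was lower and 30 did not pass, with a median of 0.31, and no gene of the list had a spot at the last positions. Mrpl21 (0.94), Mrpl46 (0.84) and Mrpl48 (0.74) were the highest. Of 17 genes of protein import through the mitochondrial membranes 3 were higher, Timm21 at 0.83, Tomm22 at 0.56 and Tomm5 at 0.39, and 14 did not pass. Both lists had higher medians than the respiratory genes with H clones alone (0.31 and 0.16, beside 0.08), a difference that was not tested.

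Enzymes that feed the chain were higher in part. Of 17 genes of the tricarboxylic acid cycle and pyruvate dehydrogenase 8 were higher, 1 was lower and 8 did not pass, and with H clones alone 4 were higher and 1 lower. Dld, the dehydrogenase subunit shared by several oxoacid dehydrogenase complexes, was at 1.01 (0.52 with H clones alone) and Dlst, of the oxoglutarate complex, at 0.84 (0.31 with H clones alone), and both passed either way. Pdhb was at 1.16, but its H clone was at 0.00 and did not pass (adjusted p = 0.963, limma). Idh2, which makes NADPH, was the gene that was lower (−0.47, adjusted p = 0.00140). Of 4 other donors of electrons to ubiquinone, Gpd2 was higher at 0.52 (0.20 with H clones alone, not passing). In ubiquinone synthesis 2 of 8 genes were lower, Coq3 at −0.78 and Coq8a at −0.57, and 6 did not pass.

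Of 17 assembly factors outside the rule 3 were higher, 1 was lower and 13 did not pass. Surf1, needed for complex IV, was at 1.04, 1.13 and 0.84 on a spot at the last positions alone, Bcs1l, which inserts the Rieske protein into complex III, at 0.45 and Lrpprc, which stabilises mitochondrial mRNA, at 0.42. Coa3 was the gene that was lower, at −0.38. Among 6 carriers and channels, Slc25a4, the adenine nucleotide carrier of heart and muscle, was at 1.88 on a spot at the last positions and Vdac3 at 0.53 on an H clone, and both passed.

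Of 13 regulators of mitochondrial genes, 3 were higher and 10 did not pass, and with H clones alone 1 of 12 was higher. Ppargc1a, the coactivator of mitochondrial biogenesis, was at 2.24, 2.36 and 2.75 on arrays 1, 2 and 3, on a single spot at the last positions. Nrf1, a transcription factor of nuclear respiratory genes, was at 0.42, but at −0.03 with its H clones alone (adjusted p = 0.641, limma). Tfb1m, which methylates mitochondrial ribosomal RNA, was at 0.82 on an H clone and passed. Tfam, which packages and transcribes mitochondrial DNA, was at 0.14, −0.06 and −0.19 and did not pass (adjusted p = 0.732).

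Genes through which the hypoxia factor HIF-1 acts on respiration included the largest decreases of these lists. Of 4 measured 2 were lower and 2 did not pass. Bnip3, a mitophagy receptor, was at −2.29, −2.52 and −2.38, and Pdk1, the kinase that shuts pyruvate dehydrogenase, at −1.36, −1.49 and −1.38 on arrays 1, 2 and 3 (adjusted p = 1.36e-04 each, limma). Both were measured by an H clone, and their changes were larger in size than that of any respiratory chain or ATP synthase gene. Lonp1 and Iscu were at −0.09 each and did not pass.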

How the data were processed

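RNA of the S-1 and DAPT-treated CHO cultures was amplified, labelled with Cy3 or Cy5 and hybridised in pairs. The authors read the images with GenePix Pro 6.0 and deposited a log2 ratio for each spot of each array, normalised by print-tip lowess without background correction. Intensities were not used here, and the number of arrays limits the precision. Gene names came from the platform annotation (12563 tested spots with 1 name, 412 with several, 3953 with none).

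The 736 spots at 23 block positions that carry no gene name in any block were taken as controls and left out (their r was 0.99 for arrays 1 and 2 and −0.96 for arrays 1 and 3). limma 3.58.1 in R 4.3.3 fitted each spot, and each gene as the mean of its spots, against 0, with Benjamini-Hochberg adjustment over all 16928 spots or 8146 genes. No test was made over lists. Clone letters were placed by gene names that stand once on the array and once in the study's clone lists (in the area taken as H clones 536 such names were H and 1 was P). Python 3.11.15, NumPy 2.4.6, pandas 2.3.3 and Matplotlib 3.10.9 made tables and plots, and the fit was tested on simulated data.

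The members and lists were chosen with earlier results of these data known. Genes named are the members with a gene value or spot past the threshold, the 6 highest and lowest, those with spots over 0.5 apart, some isoforms, and from each list at most 3 that passed. Other genes were named after their values were seen. Alternatives were the control spots included, an adjusted p of 0.05, arrays centred, scaled or quantile normalised, the dye as a coefficient, a robust variance prior, array weights, the median of a gene's spots, H clones alone, and each array left out. Leaving out the last 24 positions was added after seeing the data.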

Additional observations from a re-analysis of the deposited data

How the results depend on the processing

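Shares of all tested spots or genes that passed in the same setting, in either direction, follow each count. Where array weights were used, they were 1.48, 1.88 and 0.36 for arrays 1, 2 and 3, so that the dye-swap array counted least. The count of member spots that passed, 33 of 113 (29.2%, beside 18.2% of all), was 14 with the control spots included (12.4%, beside 7.01%), 63 at an adjusted p of 0.05 (55.8%, beside 39.8%), 61 with the dye as a coefficient (54.0%, beside 40.4%), 51 with array weights (45.1%, beside 31.9%), 18 of 98 with H clones alone (18.4%, beside 15.4%) and 20 of 100 without the last 24 positions of a block (20.0%, beside 16.5%). Leaving out 1 array gave 3 to 57 spots (11 without array 1, 9.73% beside 7.98%, 3 without array 2, 2.65% beside 2.14%, and 57 without array 3, 50.4% beside 37.0%, where the dye and the S-1 effect cannot be told apart). The count of genes, 23 of 69 (33.3%, beside 22.6%), was 38 at an adjusted p of 0.05 (55.1%, beside 46.2%) and 35 with the dye as a coefficient (50.7%, beside 44.9%). It was 7 without array 1 (10.1%, beside 8.26%), 7 without array 2 (10.1%, beside 5.97%) and 34 without array 3 (49.3%, beside 40.5%). The 7 that passed without array 1 and again without array 2 were Cyc1, Cycs, Atp5k, Ndufaf4, Uqcrfs1, Sdhd and Cox6b1. The other lists, of the sizes given above and with 3 measured genes of the transfected subunits, held 45 genes that passed (beside 22.6% of all genes). They held 14 without array 1 (beside 8.26%), 14 without array 2 (beside 5.97%) and 72 without array 3 (beside 40.5%). These counts fell and rose as the shares of all genes did, so the change was not particular to the lists. Of the 23 genes, Ndufs7 did not pass with quantile normalisation, nor Ndufs7 and Uqcrb with the robust prior, Sdhc with arrays centred, or Uqcrc2 and Atp5g1 with the median of the spots. The median of the member genes lay between 0.08 (H clones alone, and without the last 24 positions) and 0.18 (without array 3). None of the 23 genes changed its sign in any of these settings, while among the others Cox6a1 and Sdha, for example, were below 0 with H clones alone. Each array's ratio is the difference within a pair of cultures, so that the fit against 0 is itself paired.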

Other observations

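A set of 6 spots carried several gene names of which at least 1 met the rule, and was kept out of the values above. A spot named for Tm9sf2 and Uqcrh was at −0.76, −0.76 and −0.38 on arrays 1, 2 and 3, whereas the spot with the single name Uqcrh had a mean of −0.19. A spot named for Zkscan14 and Atp5j2 was at −0.22, −0.38 and −0.26, and one for Gm5113 and Cox7a1 at 1.21, 1.30 and 0.69. The 3 spots named for Gm4787, Cox16, Synj2bp and Adam4 had means of 0.55, −0.32 and −0.38 and stood on both sides of 0. These names do not say which transcript gave the ratio.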
